A study of Mus musculus with 24 samples.

Results

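Adrenal glands of female (F) and male (M) C57BL/6 WT sham mice were compared, 3 arrays each of the 24 one-colour arrays in the series. The features described are those not on chromosome X or Y, 29869 of the 31073 tested, and 18622 of them carry a gene symbol. The labels give the tissue, sex, strain, genotype, treatment, RNA amount and RNA integrity number, and do not give the age of the mice or whether an array holds 1 animal or a pool. Where needed, the same genes were read in 4 other groups of 3 arrays: F and M mice null for Kcnk3, a gene of a background potassium channel, after sham treatment, F WT mice given testosterone, and castrated M WT mice. The p-values measure the spread between arrays.

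The adrenal cortex is layered. The zona glomerulosa under the capsule makes aldosterone, the zona fasciculata makes corticosterone in mice, and both start from cholesterol that is taken up, stored as esters in lipid droplets and carried into mitochondria. Mice also have an X-zone, a transient innermost cortical layer that regresses in males at puberty and in females with a first pregnancy, and androgens are known to hasten its loss. The medulla at the centre makes catecholamines, and resident immune cells lie throughout the gland.

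A level below is the log2 processed signal of a probe minus the 75th percentile of its array, so a level of 0 is that percentile. A difference is the mean level of F arrays minus that of M arrays, given ± the standard error of the limma fit, with n = 3 arrays per group. Adjusted p-values come from limma with Benjamini-Hochberg adjustment over all 31073 features, and a feature is said to have risen (higher in F) or fallen (lower in F) when its adjusted p is under 0.05. Levels of different probes are not comparable with each other. In whole glands, fewer cells of a type and less RNA per cell cannot be told apart.

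Several arrays stood apart before any comparison. Xist, the RNA of the inactive X chromosome, read 0.15, -2.11 and -1.68 in F arrays 1, 2 and 3, and -7.54, -7.49 and -7.24 in M arrays, in which it was not well above background. The Y-linked Ddx3y read -4.70, 0.33 and 0.61 in F arrays, against 2.04, 1.96 and 2.24 in M arrays. Relative to the mean M signal, F array 1 thus carried 0.91% of Ddx3y, while F arrays 2 and 3 carried 29.6% and 36.1%. Albumin, a liver transcript, read -1.94, -3.44 and -0.15 in F arrays, against -1.17, -4.04 and 7.38 in M arrays, so M array 3 stood far above the others. F array 3 also had an RNA integrity number of 3, against 7 or 8 in the other 5 arrays. The share of spots well above background ran from 58.1% to 64.7%, and precision is limited by the number of arrays. The F WT testosterone arrays carried Ddx3y at 30.8%, 18.8% and 32.7% of the mean M WT sham signal. Abhd1, a gene next to Kcnk3, read 1040% to 1390% of its mean M WT sham signal in the 6 null sham arrays, and was also raised in the F WT testosterone arrays (625%, 347% and 675%) and in castrated M WT arrays 2 and 3 (334% and 321%). All groups are used as labelled. Tissue markers were present in both sexes: the corticosterone synthase gene Cyp11b1 read 8.28, 8.28 and 8.52 in F arrays and 8.25, 8.17 and 7.93 in M arrays.

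**Figure D1:**
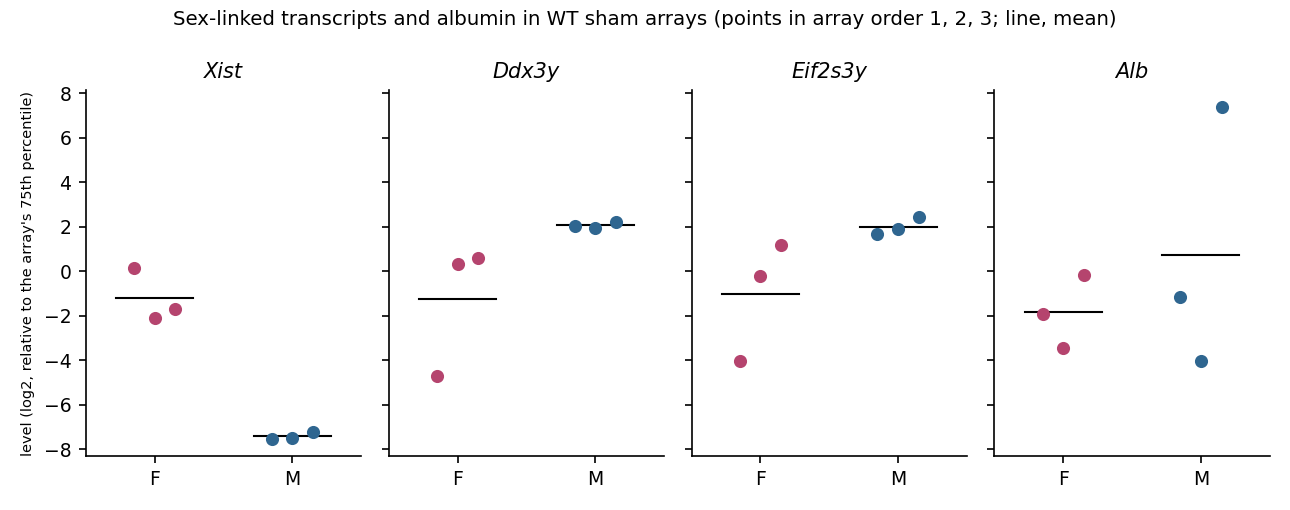
Levels (log2, relative to each array's 75th percentile) of Xist, of the Y-linked Ddx3y and Eif2s3y, and of albumin (Alb) in the 3 F and 3 M WT sham arrays, one point per array and a line at the mean. F arrays 2 and 3 lie between F array 1 and the M arrays for both Y-linked genes, and M array 3 holds albumin at 7.38.

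Of the 29869 features, 593 differed between the sexes (1.99%), 356 higher in F (1.19%) and 237 lower in F (0.793%). With a symbol, 303 were higher and 191 lower. The change was at least 2-fold in 266 of the higher features and 168 of the lower ones. Counts of calls in the gene lists below stand beside the shares over all features. Those lists were written with earlier results of these data known. The F and M arrays did not overlap in 592 of the 593, which a call largely builds in; over all features the arrays did not overlap in 16.5%. The median difference over all features was 0.01 under each of the 4 scalings. A fit with slide as a block called 1320 features, and a fit to the 6 arrays alone called 54 (39 higher, 15 lower). Leaving out F arrays 2 and 3, with F array 1 assumed to vary like the other groups, gave 1087 calls, 507 higher and 580 lower. Leaving out M array 1, F array 1 or M array 2 gave 276, 311 and 282 calls. Among the higher features F array 3 was the F array nearest to the M mean in 212 of 356, against 69 for F array 1 and 75 for F array 2. Among 236 lower features with no missing spot, F array 1 was the nearest in 40, F array 2 in 97 and F array 3 in 99. The part of the Y-linked signal and of the low RNA integrity in these orders was not tested.

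**Figure D2:**
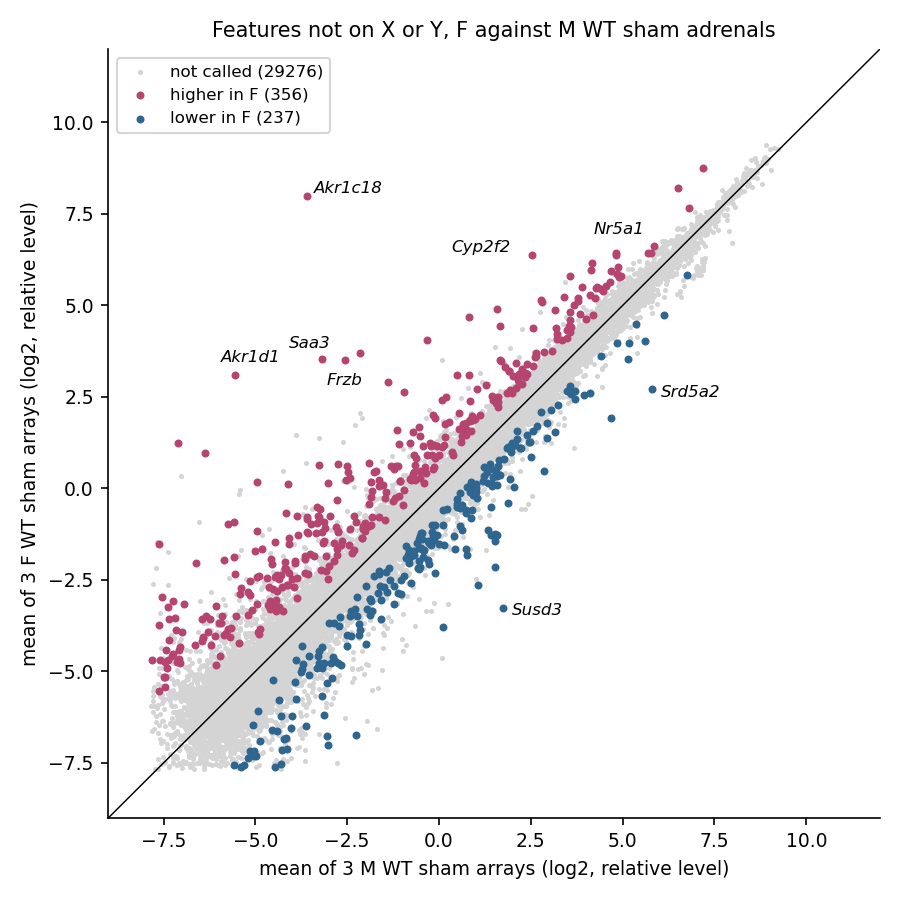
Mean level in 3 F arrays (y axis) against the mean in 3 M arrays (x axis), both log2 relative to the array's 75th percentile, for 29869 features not on X or Y. The 356 features higher in F and the 237 lower in F are coloured, and Akr1c18 lies farthest from the line of equal levels.

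The largest difference of all belonged to an X-zone gene. Akr1c18, a progesterone-degrading hydroxysteroid dehydrogenase used as the marker of the X-zone, read 8.53, 8.37 and 7.05 in F arrays, against -3.27, -3.97 and -3.56 in M arrays. The lowest F array lay far above the highest M array, and the difference was 11.59 ± 1.75 (adjusted p = 0.00117). Pik3c2g, a class II phosphoinositide kinase gene that also marks the X-zone, read 1.52, 1.63 and 0.55 in F arrays, against -7.40, -7.44 and -6.47 in M arrays. No M array had Pik3c2g well above background, so it was at least 6.74 log2 units higher in F (adjusted p = 0.00202). A value given as "at least" sets the mean of the bright group against the higher of the dim probe's own signal and the lowest signal well above background on each array. Thrb, the thyroid hormone receptor gene on which X-zone growth depends, was the third gene of the list, read 2.01, 2.07 and 0.99 in F arrays and 0.58, 0.66 and 0.67 in M arrays, and did not pass (1.05 ± 0.27, adjusted p = 0.0547). The difference of Akr1c18 was 11.80 within slide 1, which held F array 1 and M array 1, and 12.34 within slide 2, with the second array of each sex. Both calls held when any single array was left out. The Akr1c18 probe lies at chr13:4131895-4131954 (minus strand) and the Pik3c2g probe at chr6:139917743-139917802 (plus strand) of mm9.

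**Figure D3:**
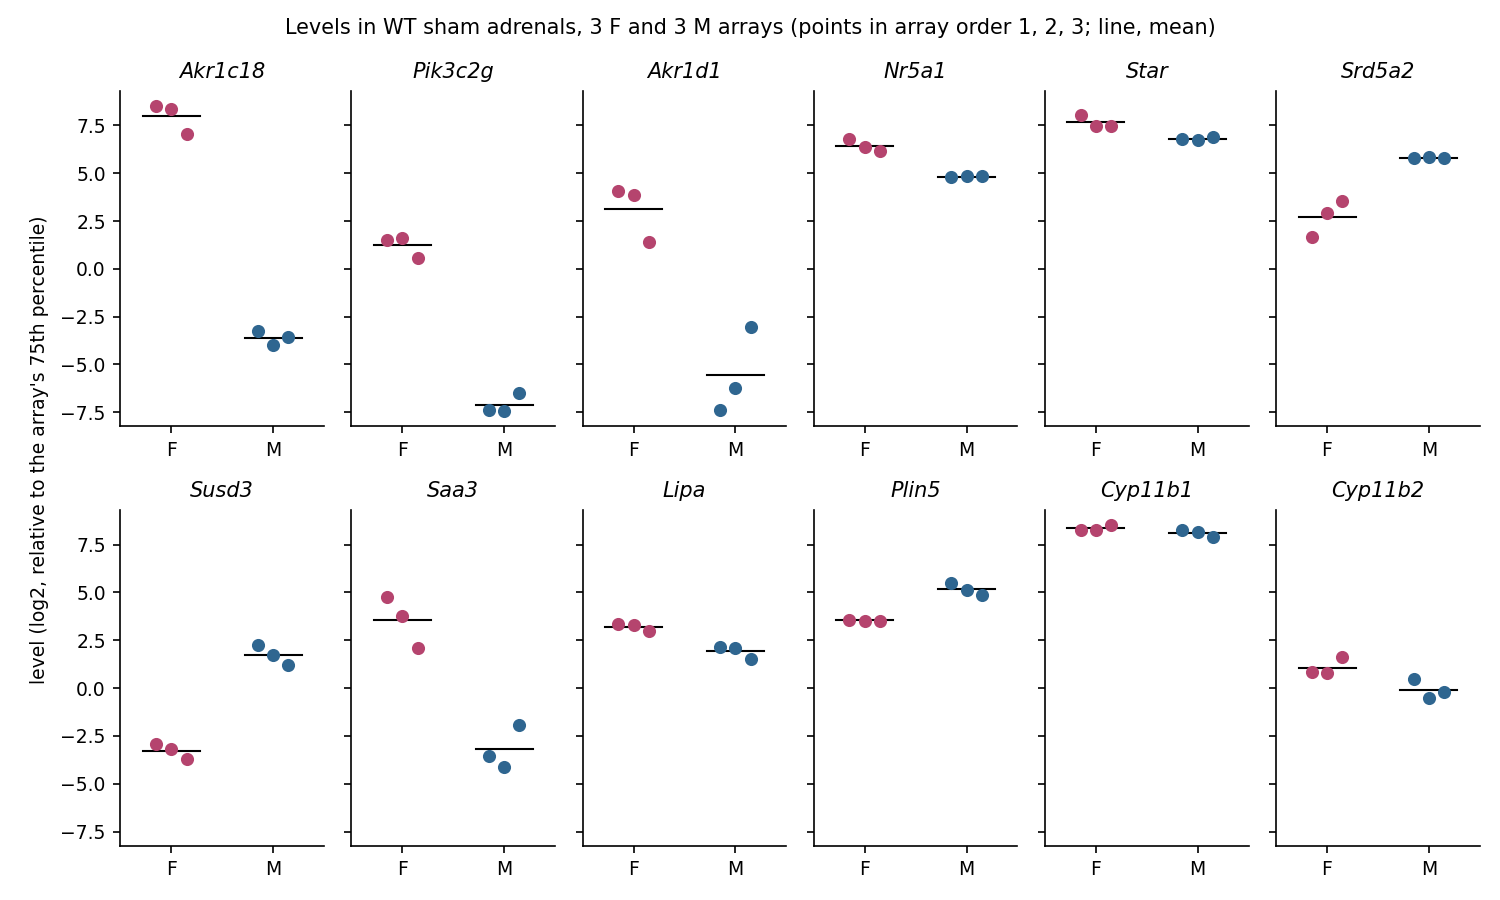
Levels (log2, relative to each array's 75th percentile) of 12 genes in the 3 F (left) and 3 M (right) WT sham arrays, points in array order and a line at the mean. The sexes are separated for Akr1c18, Pik3c2g, Akr1d1, Nr5a1, Star, Srd5a2, Susd3, Saa3, Lipa and Plin5; Cyp11b1 and Cyp11b2 did not pass the test. Heights are comparable within a gene, not between genes.

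The other cortical zones differed in few genes. Of 13 measured zona glomerulosa genes none rose and 1 fell, with a median difference of 0.39 that was -0.01 within slide 1 and 0.03 within slide 2. The falling gene, Kcnk9, encodes TASK3, a background potassium channel of glomerulosa cells; it read 4.22, 3.76 and 3.98 in F arrays, against 5.46, 5.17 and 4.87 in M arrays (-1.18 ± 0.30, adjusted p = 0.0461). Its call ended when any of the 6 arrays was left out (adjusted p 0.0571 to 0.199). Cyp11b2, aldosterone synthase, read 0.82, 0.79 and 1.61 in F arrays and 0.46, -0.49 and -0.20 in M arrays; the arrays did not overlap, but the difference of 1.15 ± 0.49 had an adjusted p of 0.302. Kcnk3 differed by 0.77 ± 0.32 (adjusted p = 0.297). Dab2, an adaptor protein gene of glomerulosa cells, differed by 0.53 ± 0.19 (adjusted p = 0.204), and Wnt4, a Wnt ligand gene, by 0.60 ± 0.24 (adjusted p = 0.254).

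Among 10 zona fasciculata genes Star rose and none fell, with a median of 0.12. Cyp11b1 differed by 0.24 ± 0.16 (adjusted p = 0.611), Mc2r, the ACTH receptor, by 0.08 ± 0.21 (adjusted p = 0.956) and Akr1b7, an aldo-keto reductase of fasciculata cells, by -0.47 ± 0.25 (adjusted p = 0.469). Abcb1b, a steroid-exporting transporter gene, read 6.20, 6.64 and 5.92 in F arrays and 6.97, 6.86 and 6.78 in M arrays without passing (-0.62 ± 0.26, adjusted p = 0.295). The capsule and progenitor list had no call among 13 genes and a median of -0.03. There Shh, made by progenitors under the capsule, differed by -0.76 ± 0.29 (adjusted p = 0.242), its receptor Ptch1 by -0.82 ± 0.30 (adjusted p = 0.209) and the capsular Wnt enhancer Rspo3 by -0.47 ± 0.23 (adjusted p = 0.425).

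Wnt signals pattern the cortex, and 2 of the 29 genes of that list rose, both of them secreted antagonists. Frzb read 3.91, 3.91 and 2.72 in F arrays, against -2.69, -2.01 and -2.95 in M arrays (6.06 ± 0.56, adjusted p = 1.09e-05). Sfrp4 read -1.98, -2.10 and -2.28 in F arrays, against -2.99, -3.0 and -3.03 in M arrays (0.88 ± 0.21, adjusted p = 0.0327). Frzb kept its call in every single-array omission, while that of Sfrp4 ended without F array 1 or 2 or M array 1, 2 or 3 (adjusted p 0.0774 to 0.138). The median over the list was 0.00, and the intracellular Tcf7 differed by -0.30 ± 0.17 (adjusted p = 0.512).

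Of 16 measured genes of steroid synthesis 3 rose and none fell, with a median of 0.30 (0.08 within slide 1, 0.03 within slide 2). Nr5a1, the transcription factor SF-1 that switches on steroidogenic genes, read 6.80, 6.35 and 6.17 in F arrays, against 4.78, 4.83 and 4.85 in M arrays (1.62 ± 0.26, adjusted p = 0.00185). Star, which carries cholesterol into mitochondria, read 8.02, 7.47 and 7.48 in F arrays, against 6.81, 6.75 and 6.88 in M arrays (0.84 ± 0.19, adjusted p = 0.0262). Por, the electron donor of microsomal P450 enzymes, read 5.90, 5.59 and 5.95 in F arrays, against 4.84, 4.97 and 5.06 in M arrays (0.85 ± 0.18, adjusted p = 0.0136). Each of the 3 had all F arrays above all M arrays, which a call largely builds in. The calls of Star (without F array 1 or M array 1, 2 or 3, adjusted p 0.0589 to 0.149) and Por (without F array 1 or M array 1 or 2, 0.0544 to 0.077) depended on single arrays, and Star also lost its call with the median over its probes (0.47, adjusted p = 0.249). The core enzymes lay close together in the sexes: Cyp11a1, which cleaves the cholesterol side chain, differed by -0.02, Hsd3b1 by 0.17, and Cyp21a1, the steroid hydroxylase between progesterone and deoxycorticosterone, by 0.49 ± 0.23 (adjusted p = 0.4). Among 21 transcription factors of steroidogenic cells Nr5a1 alone was called, and the median was 0.03.

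Genes of the steroid metabolism list changed in both directions. Of 27 measured, 3 rose, Akr1c18 among them, and 1 fell, with a median of -0.07. Akr1d1, the steroid reductase that also serves bile acid synthesis in liver, read 4.05, 3.89 and 1.39 in F arrays, against -7.36, -6.22 and -3.05 in M arrays, where it was well above background on 1 array of 3 (8.66 ± 1.20, adjusted p = 0.000579). Its highest M reading was in M array 3, the array with albumin. Cyp2f2, a P450 of lung and liver, read 7.13, 6.78 and 5.20 in F arrays, against 1.46, 2.33 and 3.78 in M arrays (3.85 ± 0.77, adjusted p = 0.0111), and its call ended without F array 1 or M array 1 or 2 (adjusted p 0.053 to 0.0762). Srd5a2, the reductase that turns testosterone into dihydrotestosterone, read 1.66, 2.91 and 3.54 in F arrays, against 5.80, 5.83 and 5.78 in M arrays (-3.10 ± 0.56, adjusted p = 0.00505). The M arrays lay close together, and the F arrays with Y-linked signal were the nearer ones; without them the difference was -4.14 (adjusted p = 0.00663). Hsd11b1, which regenerates active glucocorticoid, read 3.17, 3.16 and 2.88 in F arrays and 3.88, 3.89 and 4.00 in M arrays without passing (-0.86 ± 0.30, adjusted p = 0.182). The Akr1c18 neighbours Akr1c12 and Akr1c13 differed by 0.84 ± 0.27 and 0.80 ± 0.24 (adjusted p = 0.135 and 0.0994). These genes are close copies, and cross-hybridization was not tested. On mm9 the Akr1d1 probe lies at chr6:37518113-37518172 (plus strand) and the Srd5a2 probe at chr17:74367046-74367105 (minus strand).

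Receptors for hormones went both ways, with 1 of 23 higher, 2 lower and a median of -0.05, which was -0.48 within slide 1 and -0.17 within slide 2. Prlr, the prolactin receptor, read 5.10, 4.89 and 4.64 in F arrays, against 3.24, 3.30 and 2.94 in M arrays (1.72 ± 0.21, adjusted p = 0.00018). Vdr, the vitamin D receptor, read -1.31, -1.64 and -1.59 in F arrays, against -0.11, 0.04 and 0.11 in M arrays (-1.53 ± 0.27, adjusted p = 0.00407). Npr3, the clearance receptor of natriuretic peptides, fell by 1.33 on the log2 scale (adjusted p = 0.0212), with 3 F arrays between -0.64 and -0.56 and 3 M arrays between 0.62 and 0.83. The call of Npr3 ended without F array 1 or 2 or M array 1 or 2 (adjusted p 0.0535 to 0.0922), and that of Vdr without both F arrays that carry Y-linked signal (-1.32, adjusted p = 0.0757). Avpr1a, a vasopressin receptor, differed by -1.66 ± 0.50 (adjusted p = 0.111).

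The promoters of the 2 steroid-converting genes with the largest rises, Akr1c18 and Akr1d1, and of 2 genes with large falls, Srd5a2 and Susd3 (described below), are shown so that the regulatory sequence can be read beside the levels. Each runs from 250 bases before to 50 bases after the RefSeq start (GRCm38.p6), in the direction of transcription. Capitals mark AAGGTCA, the motif of NR5A1, and AGAACA, the core of androgen and glucocorticoid receptor elements, searched on both strands; the motifs share no letters in these windows.
Akr1c18 (chr13:4150597-4150896, minus strand): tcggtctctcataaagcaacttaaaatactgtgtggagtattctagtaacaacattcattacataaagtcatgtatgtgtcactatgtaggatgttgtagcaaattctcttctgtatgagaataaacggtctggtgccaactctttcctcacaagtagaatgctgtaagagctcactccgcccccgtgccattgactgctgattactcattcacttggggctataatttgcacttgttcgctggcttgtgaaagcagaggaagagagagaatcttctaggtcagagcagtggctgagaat
Akr1d1 (chr6:37529923-37530222, plus strand): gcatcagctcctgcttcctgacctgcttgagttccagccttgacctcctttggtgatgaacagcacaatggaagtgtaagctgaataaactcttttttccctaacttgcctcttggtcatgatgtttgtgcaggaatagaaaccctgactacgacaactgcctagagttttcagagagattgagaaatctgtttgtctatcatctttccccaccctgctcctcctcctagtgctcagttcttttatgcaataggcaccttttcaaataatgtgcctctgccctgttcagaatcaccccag
Srd5a2 (chr17:74047811-74048110, minus strand): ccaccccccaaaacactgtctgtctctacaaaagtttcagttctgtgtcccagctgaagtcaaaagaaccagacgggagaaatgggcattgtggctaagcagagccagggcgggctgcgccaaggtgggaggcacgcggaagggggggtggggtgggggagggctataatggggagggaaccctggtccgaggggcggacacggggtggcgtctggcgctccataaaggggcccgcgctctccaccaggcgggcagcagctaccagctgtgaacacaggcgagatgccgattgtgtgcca
Susd3 (chr13:49248245-49248544, minus strand): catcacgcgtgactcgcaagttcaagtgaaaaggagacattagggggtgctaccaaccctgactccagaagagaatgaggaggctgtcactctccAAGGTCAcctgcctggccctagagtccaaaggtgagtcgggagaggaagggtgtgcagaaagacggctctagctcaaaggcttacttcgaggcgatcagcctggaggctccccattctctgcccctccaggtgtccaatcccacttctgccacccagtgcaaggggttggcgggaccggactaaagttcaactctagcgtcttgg

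In these 4 windows Susd3 held AAGGTCA once, starting at position -155 from the start of transcription, and the other 3 held neither motif. Of all 32851 promoters of the same length in the table, 4.72% held AAGGTCA and 19.0% held AGAACA. Among 275 promoters of genes called higher in F the shares were 6.18% and 16.7%, and among 182 promoters of genes called lower in F they were 3.85% and 19.2%. A match describes the letters of this window and not a bound site.

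Of 26 measured genes of cholesterol synthesis and uptake 3 rose and none fell, 19 had a positive difference, and the median was 0.40 (0.53 within slide 1, 0.49 within slide 2), against 0.01 over all features. Fdps, which makes farnesyl diphosphate, rose by 1.20 ± 0.28 (adjusted p = 0.0316) and Msmo1, a sterol demethylase, by 0.95 ± 0.23 (adjusted p = 0.0415). The calls of Fdps (without F array 1 or 2 or M array 1 or 2, adjusted p 0.104 to 0.144) and Msmo1 (without F array 1 or 2 or M array 1, 2 or 3, adjusted p 0.0984 to 0.207) depended on single arrays. Hsd17b7, an enzyme of the same pathway, differed by 1.71 ± 0.49 (adjusted p = 0.0916) and the regulator Srebf2 by 0.68 ± 0.19 (adjusted p = 0.0742).

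Storage and breakdown of lipid changed in single genes. Of 28 genes of cholesterol storage and lipoproteins 1 rose and 1 fell, with a median of -0.10. Lipa, the lysosomal lipase that frees cholesterol from its esters, read 3.37, 3.30 and 2.98 in F arrays, against 2.13, 2.07 and 1.54 in M arrays (1.30 ± 0.23, adjusted p = 0.00352). Plin5, a lipid droplet coat protein that tethers droplets to mitochondria, read 3.57, 3.52 and 3.53 in F arrays, against 5.48, 5.13 and 4.86 in M arrays (-1.62 ± 0.33, adjusted p = 0.0118), and its call ended without M array 1 (adjusted p = 0.0732). Soat1, which esterifies cholesterol, differed by 0.38 ± 0.25 (adjusted p = 0.6), Nceh1, a neutral ester hydrolase, by 0.64 ± 0.18 (adjusted p = 0.0809) and the exporter Abca1 by 0.37 ± 0.18 (adjusted p = 0.409).

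Of 30 genes of fatty acid and triglyceride synthesis 2 rose and none fell, although 20 had a negative difference and the median was -0.20 (-0.55 within slide 1, -0.31 within slide 2). Gpam, the first enzyme of glycerolipid synthesis, read 1.22, 1.29 and 0.95 in F arrays, against 0.13, 0.03 and -0.30 in M arrays (1.20 ± 0.19, adjusted p = 0.00174). Fads2, the desaturase that starts the synthesis of polyunsaturated fatty acids, read 4.25, 4.43 and 4.45 in F arrays, against 3.28, 3.15 and 3.15 in M arrays (1.18 ± 0.22, adjusted p = 0.006). Both kept their calls in every single-array omission, and that of Fads2 ended without both F arrays with Y-linked signal (1.05, adjusted p = 0.0843) and without the third array of each sex (1.12). In fatty acid oxidation 1 gene of 30 rose and none fell, with a median of -0.21: Cpt1a, the gate for fatty acids into mitochondria, differed by 0.82 ± 0.18 (adjusted p = 0.019), a call lost without F array 1 or 2 or M array 1, 2 or 3 (adjusted p 0.0576 to 0.114). Of 26 eicosanoid genes none rose and 1 fell, with a median of 0.02. The secreted phospholipase gene Pla2g5 fell by 0.95 on the log2 scale (adjusted p = 0.0413), a call lost with any of the 6 arrays left out (adjusted p 0.0505 to 0.173), and Alox5, which opens leukotriene synthesis, differed by 1.5 ± 0.39 (adjusted p = 0.0548).

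Adipocyte markers, beside these lipid genes, had no call among 13 genes, 1 positive difference and a median of -0.29. Their summed linear level was 1320, 1270 and 1810 in F arrays, against 1730, 1860 and 1320 in M arrays, so the sexes overlapped. Liver markers had no call among 13 genes either, with a median of -2.57 that was -0.82 within slide 1 and -0.23 within slide 2, neither of which held M array 3. Their summed linear level was 117, 146 and 155 in F arrays, against 202, 253 and 1100 in M arrays. The part of either tissue in the lipid results was not tested. Sums are of linear signal relative to the array's 75th percentile.

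**Figure D4:**
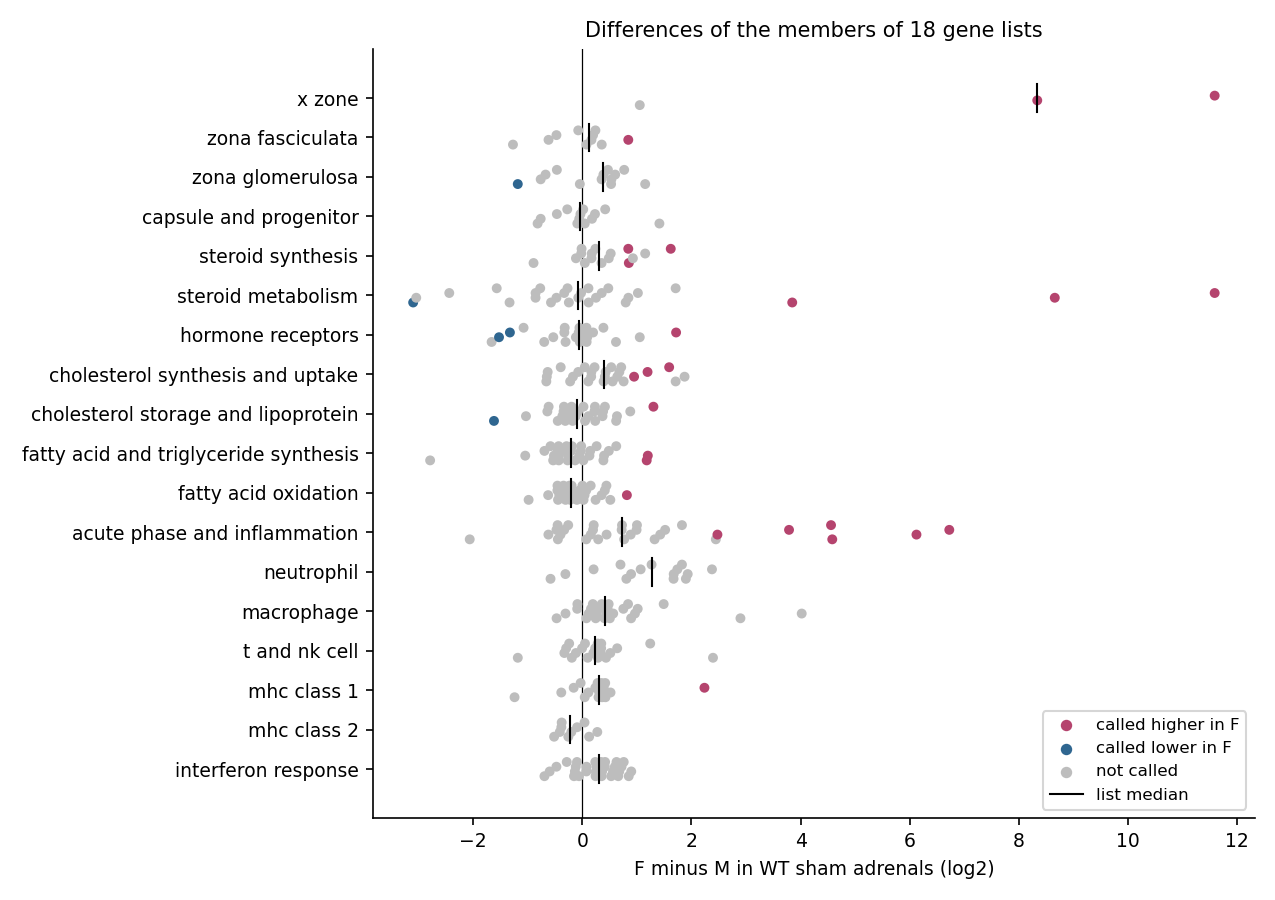
F minus M differences (log2, x axis) of each measured member of 18 gene lists in WT sham adrenals, one point per gene and a black line at the list's median. The X-zone genes, steroid metabolism and acute-phase genes reach the largest differences, while the medians of the fasciculata and capsule lists lie close to 0 (0.12 and -0.03).

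Genes of acute inflammation formed the immune group with the most calls. Of 31 measured, 6 rose and none fell, against 1.19% higher and 0.793% lower over all features. The list was written with earlier results of these data known. It had 23 positive differences and a median of 0.73 (1.39 within slide 1, 0.75 within slide 2). Saa3, an acute-phase apolipoprotein, read 4.75, 3.77 and 2.10 in F arrays, against -3.53, -4.10 and -1.93 in M arrays (6.72 ± 0.75, adjusted p = 6.57e-05). Clec4e, the innate receptor Mincle, read -0.33, -1.49 and -2.70 in F arrays and was not well above background in any M array (at least 16.0-fold higher, adjusted p = 9.76e-06). Acod1, which makes the antibacterial metabolite itaconate, read -2.65, -1.13 and -2.32 in F arrays and was at least 11.1-fold higher (adjusted p = 0.000293). The neutrophil chemokine Cxcl5 was at least 5.78-fold higher (adjusted p = 0.000608) and the scavenger receptor Olr1 at least 3.85-fold (adjusted p = 0.00278), again with no M array well above background. Clec4d, the partner of Clec4e, read 0.80, -0.66 and -1.08 in F arrays, against -2.32, -2.69 and -3.36 in M arrays (2.48 ± 0.59, adjusted p = 0.0325). F array 1 was the highest F array for Saa3, Clec4e, Cxcl5, Olr1 and Clec4d. The call of Clec4d ended without any array but F array 3 (adjusted p 0.0535 to 0.178), and those of the other 5 held in all single-array omissions. Saa1, also on the list, read 3.02, 2.18 and 1.74 in F arrays and -1.25, -1.39 and 6.91 in M arrays (adjusted p = 0.913). The summed linear level of the list was 96.1, 76.3 and 50.2 in F arrays and 42.7, 43.4 and 266 in M arrays. Both were highest in M array 3, the array with albumin. Classical cytokines did not pass: Il1b differed by -0.33 and Tnf by 0.73 (adjusted p = 0.836 and 0.38). Il6 (adjusted p = 0.663) was well above background on 1 F array and on no M array, so no size of change was measured.

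Myeloid markers had positive differences without a call. Of 26 macrophage genes 22 were positive, the median was 0.42 (0.90 within slide 1, 0.20 within slide 2), and none passed; the summed linear level was 175, 114 and 174 in F arrays, against 113, 102 and 119 in M arrays. Marco, a scavenger receptor of macrophages, read 4.19, 0.79 and 0.20 in F arrays and -3.46, -3.36 and -0.06 in M arrays (4.02 ± 1.26, adjusted p = 0.128), and Csf1r, the receptor that sustains macrophages, differed by 0.51 ± 0.20 (adjusted p = 0.264). Of 15 neutrophil genes 13 were positive with a median of 1.27 (0.66 within slide 1, 0.61 within slide 2) and no call; their sums were 96.1, 133 and 174 in F arrays and 168, 159 and 138 in M arrays, which overlap. Il1r2, a decoy receptor for interleukin-1, lay at -3.43, -5.54 and -5.13 in F arrays, against -6.25, -7.19 and -6.13 in M arrays, where none was well above background, while 2 F arrays were (at least 1.75-fold, adjusted p = 0.0945). The defining markers Adgre1 and S100a8 differed by 0.48 and 2.38 without passing. The part of these cells in the acute-phase results was not tested.

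Lymphoid, antigen-presenting and interferon lists held few calls. None of 21 T and NK cell genes passed (median 0.24), none of 10 MHC class II genes (median -0.23) and none of 30 interferon-response genes (median 0.30). Il7r, the interleukin-7 receptor of lymphocytes, read -2.66, -4.05 and -3.62 in F arrays, against -5.15, -6.62 and -5.75 in M arrays, without overlap and without passing (2.39 ± 0.80, adjusted p = 0.157). Ifit3 and Oas1a, both interferon-induced, differed by 0.72 ± 0.22 and 0.66 ± 0.20 (adjusted p = 0.112 and 0.102), and the class II gene H2-Ab1 by -0.38 ± 0.16 (adjusted p = 0.294). Of 12 B and plasma cell genes 1 rose: Jchain, which joins secreted IgA and IgM, read 1.40, -0.48 and 0.46 in F arrays, against -2.53, -1.89 and -3.03 in M arrays (2.95 ± 0.64, adjusted p = 0.0188). Its call ended without F array 1 or M array 1 or 3 (adjusted p 0.0747 to 0.114), and Mzb1, another plasma cell gene, differed by 0.95 ± 0.47 (adjusted p = 0.415). Of 19 MHC class I and related genes 1 rose: Cd1d1, which presents lipids to NKT cells, read 6.38, 5.83 and 5.21 in F arrays, against 3.52, 3.45 and 3.74 in M arrays (2.24 ± 0.29, adjusted p = 0.000293). The classical gene H2-D1 differed by 0.42 ± 0.19 (adjusted p = 0.331).

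C3, the central complement protein, was the complement gene that rose among 23 (median 0.22). It read 8.64, 8.31 and 7.68 in F arrays, against 6.22, 6.36 and 6.93 in M arrays (1.70 ± 0.37, adjusted p = 0.0198), and its call ended without F array 1 or 2 or M array 1 or 2 (adjusted p 0.0597 to 0.112). Among 10 mast cell genes Fcer1a passed (adjusted p = 0.043), but it was well above background on 1 F array and on no M array, so no size of change was measured. Its call ended without F array 1 or 3 or M array 1, 2 or 3 (adjusted p 0.0979 to 0.15). Cpa3 and Mcpt4, mast cell proteases, differed by 0.31 and 0.25 without passing.

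Outside these lists, other genes were among the 15 largest rises. Fa2h, which adds a hydroxyl group to the fatty acids of sphingolipids, read 0.93, 1.41 and 0.59 in F arrays, against -6.96, -4.19 and -7.96 in M arrays, where it was well above background on 1 array (7.35 ± 1.07, adjusted p = 0.000853). Acpp, the prostatic acid phosphatase gene, read 0.65, 1.09 and -1.24 in F arrays, against -5.45, -4.48 and -4.97 in M arrays (5.13 ± 0.81, adjusted p = 0.00175). Nrep (4.37 ± 0.47, adjusted p = 5.28e-05), Cst8, a cystatin first known from the reproductive tract (4.30 ± 0.44, adjusted p = 2.51e-05), and Xrra1 (4.23 ± 0.75, adjusted p = 0.00421) also rose. Tchhl1 was at least 5.40-fold higher (adjusted p = 0.00441) and Ms4a8a at least 4.81-fold (adjusted p = 0.0178). The call of Ms4a8a ended without F array 1 or M array 1, 2 or 3 (adjusted p 0.0587 to 0.103).

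Susd3, a membrane protein gene with a sushi domain, read -2.92, -3.20 and -3.69 in F arrays, against 2.27, 1.72 and 1.22 in M arrays (-5.0 ± 0.88, adjusted p = 0.00409). Without the F arrays with Y-linked signal its difference was -4.65 (adjusted p = 0.0615). Acan, the cartilage proteoglycan aggrecan, read -3.79, -4.06 and -3.50 in F arrays, against 0.42, 0.16 and -0.23 in M arrays (-3.90 ± 0.60, adjusted p = 0.00146). Crym, a thyroid hormone-binding protein of the cytosol, read -3.07, -1.78 and -1.58 in F arrays, against 1.58, 1.43 and 1.54 in M arrays (-3.66 ± 0.40, adjusted p = 6.02e-05). As for Srd5a2, F array 1 lay lowest; without F arrays 2 and 3 the difference of Crym was -4.59 (adjusted p = 0.000267).

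Kcnj4, an inward rectifier potassium channel gene, read -3.34, -2.54 and -2.02 in F arrays, against 1.28, 1.20 and 0.67 in M arrays (-3.68 ± 0.48, adjusted p = 0.000293). Kcnf1, a modifying potassium channel subunit, was not well above background in F and was at least 1.93-fold lower (adjusted p = 9.76e-06). Hhex, a homeobox transcription factor, read 2.04, 1.99 and 1.71 in F arrays, against 4.71, 4.58 and 4.77 in M arrays (-2.77 ± 0.31, adjusted p = 6.87e-05). Myo1a, a brush-border myosin, fell by 2.96 on the log2 scale (adjusted p = 0.00156), the ammonia transporter gene Rhcg by 2.85 (adjusted p = 0.00212), Pdgfrl by 2.76 (adjusted p = 0.00146) and Tent5b by 2.70 (adjusted p = 0.00185).

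For the 4 remaining large falls no F array was well above background. Cyp4f15, a P450 that acts on leukotrienes, was at least 5.25-fold lower (adjusted p = 0.0203), with M array 3 at -0.49 against -4.01 and -4.54 in M arrays 1 and 2. Its call ended without that array (adjusted p = 0.0841) and without F array 1 or 2 (0.0989 and 0.0644). Nags, of the urea cycle, was at least 4.83-fold lower (adjusted p = 0.0467), Bcl11b, a transcription factor known from T cells, at least 3.46-fold (adjusted p = 0.0325) and Syce3, of the synaptonemal complex, at least 2.21-fold (adjusted p = 0.012). The calls of Nags (adjusted p 0.0987 to 0.163) and Bcl11b (0.0604 to 0.146) ended without any array but F array 3, and that of Syce3 without F array 1 or M array 1 or 2 (0.064 to 0.065).

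Markers of other cells of the gland were read in the same way. In the medulla Th and Chga, markers of chromaffin cells, differed by 0.07 and 0.12, and 1 of 17 medullary genes fell: Penk, the precursor of enkephalins, read 1.77, 1.73 and 1.66 in F arrays, against 2.74, 2.70 and 2.55 in M arrays (-0.94 ± 0.12, adjusted p = 0.00027). The median of that list was -0.31, but 0.17 within slide 1 and -0.19 within slide 2. No gene passed among 15 endothelial genes, of which 3 had a positive difference (median -0.20). None of 7 Schwann and sustentacular cell genes passed and 0 were positive (median -0.60, -0.83 within slide 1 and -0.62 within slide 2). Their summed linear level was 7.91, 9.00 and 7.15 in F arrays, against 11.7, 13.6 and 10.2 in M arrays, without overlap. None of 7 erythroid genes passed and 0 were positive (median -0.37, -2.04 within slide 1 and -0.50 within slide 2). Sox9, a transcription factor on the gonadal-like list, read -3.66, -2.93 and -3.43 in F arrays, against -2.48, -2.19 and -2.56 in M arrays (-0.93 ± 0.20, adjusted p = 0.0165), with its call lost without F array 1 or M array 1 or 2 (adjusted p 0.054 to 0.103). Lrp2, the endocytic receptor megalin of kidney tubules, rose by 2.53 ± 0.55 (adjusted p = 0.0198), a call lost with any array left out (adjusted p 0.0517 to 0.0711). It was well above background on 1 M array, and its difference ran from 0.92 to 2.64 under the alternatives. The kidney list had a median of 0.18 over 7 genes (-0.63 within slide 1, -0.17 within slide 2).

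Clock genes were called in both directions. Of 18, 3 rose and 1 fell, with a median of 0.42 (0.96 within slide 1, 0.41 within slide 2). Dbp, an output transcription factor of the clock, read 6.35, 6.37 and 5.76 in F arrays, against 3.96, 4.56 and 3.99 in M arrays (1.99 ± 0.26, adjusted p = 0.00027). Tef, of the same family, rose by 1.20 ± 0.29 (adjusted p = 0.0368) and the repressor Nr1d2 by 1.11 ± 0.24 (adjusted p = 0.0192). Arntl, the core activator, differed by -1.84 without passing (adjusted p = 0.0942). The calls of Tef (without F array 1 or 2 or M array 1, 2 or 3, adjusted p 0.0662 to 0.174) and Nr1d2 (without F array 1 or 2 or M array 1 or 2, 0.053 to 0.118) depended on single arrays. The hour of sampling is not in the labels. Of 25 cell cycle genes 1 passed, while 24 had a positive difference and the median was 0.94 (1.41 within slide 1, 0.64 within slide 2). The gene that passed was Ccnb1, the mitotic cyclin B1 (1.71 ± 0.42, adjusted p = 0.0414). Its call ended without F array 1 or 3 or M array 1, 2 or 3 (adjusted p 0.051 to 0.211), and Plk1 and Mki67 differed by 1.27 and 1.33 (adjusted p = 0.055 and 0.0711).

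The null sham arrays give the same comparison in mice that share no array with it. There 211 features were called (0.706%), 103 higher in F (0.345%) and 108 lower in F (0.362%). M null arrays 1 and 2 carried Xist at 19.5% and 18.3% of the F null mean, and without them 14 features were called. Of the 356 features higher in F WT, 302 had a positive difference in null mice, 23 were called higher and none lower, with a median of 0.41. Of the 237 lower in F WT, 218 had a negative difference, 53 were called lower and none higher, with a median of -0.74. Over all features 16318 of 29869 were positive, with a median of 0.04. Leaving out M null array 1 gave 52 null calls, M null array 2 115, M null array 3 85, F null array 1 116 and F null array 3 94.

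**Figure D5:**
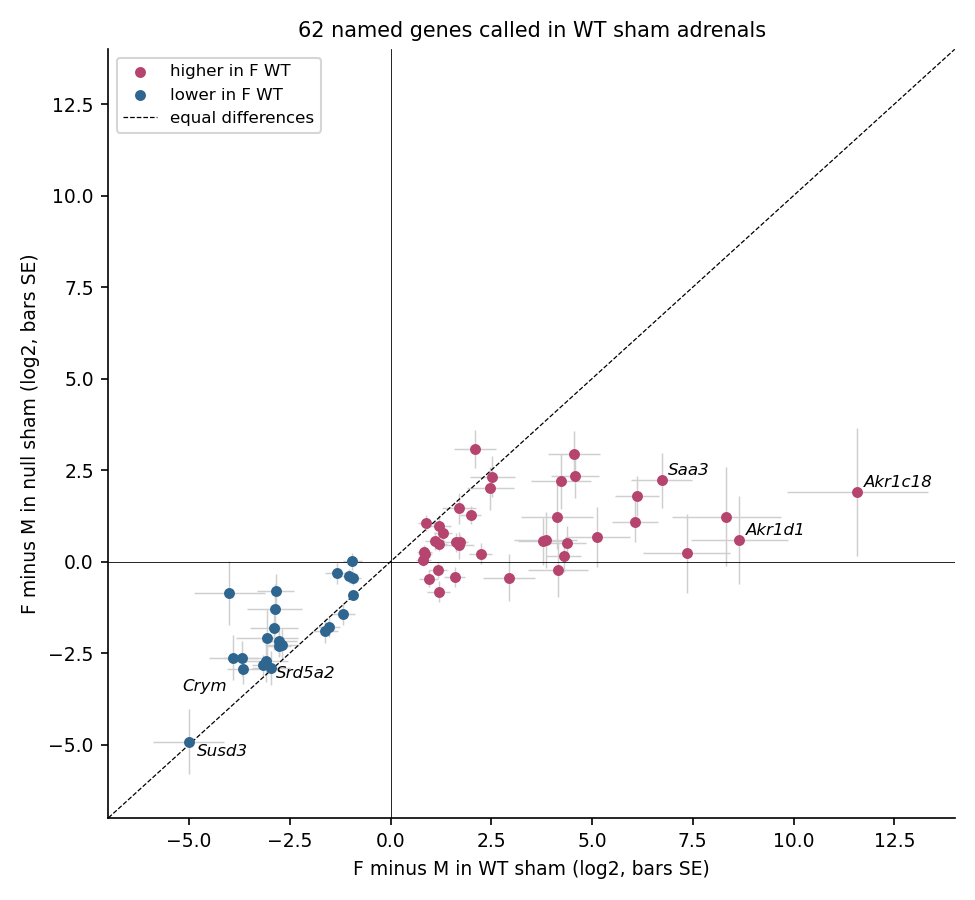
F minus M differences (log2, ± standard error) in null sham adrenals (y axis) against those in WT sham adrenals (x axis) for the 62 named genes called in WT mice; the dashed line marks equal differences. Where a sex has no array well above background the fitted value is drawn, which is no measured size. Susd3 and Srd5a2 lie near the dashed line, and Akr1c18 and Akr1d1 lie far below it.

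Of the 237 features lower in F WT, 53 were also called lower in F null mice. Rhcg (-0.79, adjusted p = 0.637), Npr3 (-0.32, adjusted p = 0.843) and Pla2g5 (0.01, adjusted p = 0.997) were among those that did not pass there. Susd3 differed by -4.92 in null mice (adjusted p = 0.0101), Crym by -2.95 (adjusted p = 0.00125), Kcnj4 by -2.64 (adjusted p = 0.0109), Hhex by -2.30 (adjusted p = 0.00116) and Srd5a2 by -2.73 (adjusted p = 0.0242). Plin5 differed by -1.89 (adjusted p = 0.00787), Vdr by -1.79 (adjusted p = 0.00273), Kcnk9 by -1.43 (adjusted p = 0.0265) and Penk by -0.92 (adjusted p = 0.00102). The X-zone genes did not pass in null mice. Akr1c18 read 6.69, 6.02 and 2.85 in F null arrays and 6.51, 7.00 and -3.65 in M null arrays (1.90, adjusted p = 0.845). Akr1c18 was high in M null arrays 1 and 2 and lay at the level of M WT arrays in M null array 3. Xist in M null array 3 was at 6.08% of the F null mean. The part of the Xist signal in these readings was not tested. Nr5a1 differed by 0.53 (adjusted p = 0.527) and Saa3 by 2.22 (adjusted p = 0.242). The difference of the sex effect between WT and null mice was called for 28 features (0.0937%), 19 with a larger F minus M in WT (0.0636%) and 9 with a smaller one (0.0301%); for Akr1c18 it had an adjusted p of 0.245.

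The hormone treatments give values for the same genes, set beside those of the sexes and sharing their sham arrays: testosterone shares the F arrays and castration the M arrays. In F mice given testosterone 28 features were called against F sham (0.0937%), 10 higher (0.0335%) and 18 lower (0.0603%), and in castrated M mice 180 against M sham (0.603%), 150 higher (0.502%) and 30 lower (0.1%). Akr1c18 differed by -1.60 with testosterone (adjusted p = 1) and rose by 11.77 with castration (adjusted p = 0.00205). Pik3c2g read 1.03, 1.86 and 1.21 in castrated M arrays, against no M sham array well above background (adjusted p = 0.00339). Frzb differed by -2.87 with testosterone (adjusted p = 0.0524) and by 5.44 with castration (adjusted p = 6.51e-05). Penk passed in both, at 0.65 with testosterone (adjusted p = 0.0482) and -0.70 with castration (adjusted p = 0.00664). Crym passed with castration at -2.28 (adjusted p = 0.00798), and its difference with testosterone was 1.57 (adjusted p = 0.2). Clec4e, of the acute inflammation genes, passed with castration (adjusted p = 0.000381) and not with testosterone (adjusted p = 0.77). It read -2.90, -2.87 and -3.63 in castrated M arrays, against no M sham array well above background. Acod1, Cxcl5, Olr1, Clec4d and Saa3 had no call after either treatment.

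Other members had differences between the sexes and no call after either treatment. Saa3 differed by 0.85 with testosterone and by -0.97 with castration (each adjusted p = 1), reading 4.66, 4.61 and 3.92 in F testosterone arrays and -4.46, -3.92 and -4.10 in castrated M arrays. Nr5a1 differed by -0.53 (adjusted p = 0.866) and 1.00 (adjusted p = 0.124), Star by -0.29 (adjusted p = 1) and 0.19 (adjusted p = 1), Susd3 by 2.03 (adjusted p = 0.736) and -2.41 (adjusted p = 0.483), and Srd5a2 by 1.84 (adjusted p = 0.341) and -2.04 (adjusted p = 0.164). A p that misses the threshold does not show that a treatment left these genes as they were.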

How the data were processed

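RNA of mouse adrenal glands had been labelled with Cy3 and hybridized to Agilent one-colour arrays, per the labels' protocols. The deposited raw files hold spot intensity values of Feature Extraction, among them a processed signal that is background-subtracted per the file headers. The deposited matrix holds log2 values whose columns follow the log2 mean signal (its centring beyond equal medians is not given in the sources used here) and served as an alternative. Members and lists were chosen with earlier results of these data known.

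Each array's 75th percentile of log2 processed signal was subtracted, outlier spots (166 to 283 per WT sham array) were left out and spots of one probe were averaged; 0 non-control spots were saturated. Probes well above background on at least 3 of 24 arrays were kept, and the probe of highest mean stood for a symbol, so other probes of a gene can disagree. Of 55681 probes, 26521 were named by accession, 3790 by symbol and 714 by synonym from RefSeq tables (GRCm38.p6), 2210 kept the file's name and 22446 had none. The files place probes on mm9, for which exon annotation was not used here. The 29869 features include 218 without a position and 7 on the mitochondrial chromosome.

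Tests used R 4.3.3 with limma 3.58.1 (version 1.17.8 of data.table, 1.5.0 of statmod), with 8 group means over 24 arrays, 16 residual and 2.24 prior degrees of freedom, and 5 comparisons. Sequences and figures used Python 3.11.15 with pandas 2.3.3 and matplotlib 3.10.9. Named genes were the 15 largest called rises and falls with arrays not overlapping, called list members (up to 8 a list), up to 4 uncalled members of zone, steroid, lipid and immune lists, and fixed defining genes. Other genes named are list members shown for their role; their values were known. Some list members that were measured are counted and not reported by name here. In simulated data with changes added to 200 of 30856 features of the WT comparison (100 of each size), 31 of 100 changes of 1 and 59 of 100 changes of 2 (log2) were recovered with the correct sign, and 7 features without a change were also called. The alternatives tried were other scalings, filters, blocks, weights and omissions of arrays.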

Additional observations from a re-analysis of the deposited data

Results flagged for a closer look

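In 4 named genes the fitted F minus M difference was larger in WT sham than in null sham adrenals by limma's test of the difference itself. The fitted excess on the log2 scale was 4.97 for Frzb (adjusted p = 0.0172), 3.86 for Nrep (adjusted p = 0.0273) and 4.14 for Cst8 (adjusted p = 0.0123). For Clec4e it was 4.32 (adjusted p = 0.0316), but no M WT array had it well above background, so only an excess of at least 2.20 was measured. Frzb read 2.21, 2.62 and 3.76 in F null arrays and 1.66, 2.57 and 1.09 in M null arrays, so the sexes overlapped there. Cst8 read 1.58, 1.53 and 1.52 in F null arrays and 1.78, 2.20 and 0.20 in M null arrays. M null arrays 1 and 2, which carried Xist, were the higher M null arrays for all 4 genes, and without them 3 features were called in place of 28. Their part in these results was not tested.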

How the results depend on the processing

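All 62 called named genes kept the sign of their difference under the alternatives that tested them and within slides 1 and 2. In each of the 62 the F and M arrays did not overlap, which a call largely builds in. On the main scale this fixes the sign within slides and in omissions of arrays, so those settings could not have reversed it. The stricter filter, well above background on all 6 arrays, tested 45 of the 62. Of the 62, 37 kept their calls in all 6 single-array omissions. The WT count of 593 became 1320 with slide as a block, 1122 with slide as a random block, 1007 with RNA integrity as a covariate, 1189 with array weights, 54 in a fit to the 6 arrays alone and 1087 without both F arrays with Y-linked signal. Single omissions gave 276 to 638. In null mice the count of 211 became 544, 581, 346 and 1936 under the first 4 settings, 44 in the groups' own arrays, 14 without M null arrays 1 and 2 (added after the data were seen) and 52 to 151 in single omissions. The difference between WT and null had 28 calls, against 16 with no filter, 62, 78, 51 and 295 under the first 4 settings, 10 in the groups' own arrays, 3 without M null arrays 1 and 2, and 5 (without M null array 1) to 54 (without F WT array 3) in single omissions. The share higher in null mice was 48.8%, against 37.3% with quantile normalization and 38.7% in the value table; for the difference between WT and null it was 67.9%, against 80.6% with normexp and 82.5% in the value table. Fits to fewer arrays have fewer residual degrees of freedom. The cause of the shifts in these counts was not tested. In the fit to 6 arrays 48 of the 62 named calls were lost.

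Replicate numbers were not treated as pairs, since deviations of same-numbered arrays correlated by -0.01, 0.27 and 0.17. With a replicate block the counts were 973 in WT mice, 377 in null mice and 55 for their difference. Signal limits dim probes: 72 of the 593 calls had a group with no array well above background.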

Other observations

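A list of 14 genes of mesothelium, the cell layer that covers abdominal organs, was made after the data were seen and is described by its values. Of these, 6 rose in F WT sham adrenals and none fell, against 1.19% higher and 0.793% lower over all features. A positive difference was found in 13, and the median was 1.85, against 0.01 over all features. Muc16, a membrane mucin, read 0.75, 0.87 and 0.38 in F arrays, against -2.74, -2.60 and -2.92 in M arrays (3.42 ± 0.57, adjusted p = 0.00281). Msln, mesothelin, read 2.65, 2.55 and 2.29 in F arrays, against 0.16, 0.51 and -0.07 in M arrays (2.30 ± 0.35, adjusted p = 0.00127). Upk1b, Upk3b, Krt19 and Bnc1 also rose, while Krt18, Cldn15 and Lrrn4 differed by 0.25, -0.06 and 0.10 without passing. The summed linear level of the list was 14.8, 16.1 and 12.4 in F arrays, against 5.04, 5.29 and 9.29 in M arrays. The sexes did not overlap in these sums, and over all single features the arrays did not overlap in 16.5%.

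Muc16 and Msln were also read in the treated groups. Muc16 read 1.14, 1.67 and 0.92 in F WT testosterone arrays, next to the F sham values above, and -2.10, -3.06 and -4.34 in castrated M WT arrays. Msln read 2.74, 2.71 and 2.84 in F WT testosterone arrays and 0.56, 0.15 and -0.48 in castrated M WT arrays. Neither gene passed with testosterone (0.58 for Muc16, 0.27 for Msln) or with castration (-0.41 and -0.12). In null sham arrays Muc16 read 1.28, 0.93 and 0.54 in F and -1.29, -0.15 and -1.46 in M.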
